A study of Mus musculus with 8 samples.

Results

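Respiratory complex I was read on the array by 56 probes for 41 gene names, out of 39429 probes and 30175 gene names in all. The members are the non-control probes whose gene name in the scanner files is Nduf followed by a, b, c, s, v or af and a number. They hold 49 probes for 35 subunits, 5 probes for the 4 assembly factors Ndufaf1 to Ndufaf4, and 1 probe each for Ndufa4 and Ndufa4l2, which are counted apart because the Ndufa4 protein is today assigned to complex IV. Of the subunit probes, 8 read the 7 nuclear-encoded core subunits and 41 read 28 supernumerary subunits. The samples were 4 male adult mice labelled heterozygous for Brd2, carrying 1 copy interrupted by a gene-trap insertion (Brd2+/-), and 4 wildtype males. All came from matings of heterozygous parents backcrossed to C57Bl/6j, and genotypes were read by PCR across the gene-trap junction, which does not measure Brd2 RNA. The labels give the tissue as prefrontal cortex striatum and, in a free description, heart left atrium. Arrays were shared by 2 mice of 1 genotype, 1 in the Cy3 and 1 in the Cy5 dye, so that each genotype came from 2 arrays (replicates 1 and 2, and replicates 3 and 4) of a single slide.

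Complex I (NADH:ubiquinone oxidoreductase) passes electrons from NADH to ubiquinone in the inner mitochondrial membrane and pumps protons while it does so. An arm that reaches into the matrix holds the NADH-oxidising module and the quinone-reducing module, and the membrane arm holds the pumping modules. The core subunits carry out the reaction and are shared with bacteria, the supernumerary subunits surround them in animals, and assembly factors help to build the complex without staying in it. Neurons draw most of their ATP from oxidative phosphorylation, and inherited defects of complex I in humans often damage the basal ganglia, of which the striatum is part.

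The tissue label was checked on marker genes: 20 of 24 probes of striatal projection neuron genes were well above background in all 8 samples, against 1 of 9 probes of atrial heart genes. The number of probes well above background ranged from 16398 to 24867 per sample, the median signal was 3.75 to 10.5 times the background, and no probe was saturated. Correlations between samples were taken over the 18399 probes tested below. They were 0.986 to 0.989 for mice of the same array and 0.925 to 0.959 for mice of different arrays. The targeted gene did not read lower in the samples labelled heterozygous. On the Brd2 probe A_55_P1958678 they had log2 levels of 11.83, 11.68, 11.75 and 11.70, against 11.06, 10.78, 12.01 and 12.02 in wildtype, and on A_55_P1953545 7.75, 8.07, 8.04 and 8.16, against 7.39, 7.31, 6.90 and 6.90 in wildtype. The differences were 0.28 (adjusted p = 0.931) and 0.88 (adjusted p = 0.50, limma for both). The labels do not place these probes relative to the insertion.

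Values below are normalised log2 levels of the sample's own channel, and differences are samples labelled heterozygous minus wildtype on the log2 scale, from limma with a dye term and arrays as random blocks. The SE and 95% interval come from that fit, and adjusted p-values are Benjamini-Hochberg values over every probe tested. Probes entered the test if 4 or more of the 8 samples read them well above background and none of their spots was flagged as an outlier. Of the members, 52 of 56 were well above background in all 8 samples, but 31 of 56 (55.4%) had a spot flagged as an outlier by the scanner software in at least 1 sample, against 10.1% of all probes. Among probes well above background in all samples the shares were 59.6% of the members and 24.2% of all probes. This fit therefore tested 25 member probes of 18399 probes, and the other 31 are given from a fit with flagged spots kept, over 22288 probes, in which every member had a value. Both mice of an array are read on the same spots: of the 77 flagged values, 28 spots were flagged in both channels and 21 in 1 channel. Over the members, the 2 mice of an array differed by a median of 0.11 and the 2 arrays of a genotype by 0.28.

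No complex I probe passed the test, and neither did any other probe: 0 of 18399 (0%) had an adjusted p under 0.05, and the lowest was 0.437. With flagged spots kept, 0 of 22288 (0%) passed, and the lowest adjusted p was 0.211. The core subunit Ndufv2 had this value, which the Benjamini-Hochberg adjustment can give to several probes at once. Of the 22 subunit probes tested, 11 were higher and 11 lower, with a median difference of -0.0030, against a median of -0.02 over all probes, of which 47.6% were higher. An unadjusted p under 0.05 was reached by 7 of the 22 subunit probes (31.8%), against 8.05% of all probes. Of these 7, 6 were higher and 1 was lower, where all probes gave 3.83% higher and 4.22% lower. No overlap between the groups was seen for 10 of the 22 probes, 6 higher and 4 lower, against 17% of all probes, 7.86% higher and 9.1% lower.

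With flagged spots kept, the 49 subunit probes divided into 24 higher and 25 lower, with a median of -0.0049 beside -0.0076 over all probes. The unadjusted p was under 0.05 for 13 of the 49 (26.5%, 9 higher and 4 lower), against 8.83% of all probes, 4.52% higher and 4.31% lower. The groups did not overlap for 18 of the 49, 9 in each direction, against 18.3% of all probes, 9.14% higher and 9.11% lower. Thus the median of the subunits lay near 0, while single subunits lay far from it on both sides: the median size of the difference was 0.38 for the subunits and 0.27 for all probes. A difference of at least 1 in size was seen for 6 of 56 members (10.7%) and 4.44% of all probes. Probes of the Ndufb group, which sits in the membrane arm, had an unadjusted p under 0.05 in 1 of 18 cases, and those of the Ndufa group in 5 of 15. These counts over groups of subunits are descriptions, and the difference between groups was not tested.

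Several member values depended on the normalisation or on 1 array. Of 54 member probes, 11 changed sign and 16 became smaller by over 1.5 times with the scanner's own processed signals, which are given below relative to the median of all probes under that setting. With a spatial trend across the array removed, 7 changed sign and 22 became smaller by over 1.5 times. Leaving out a sample or an array turned the sign of 16 probes, and 39 in all either turned or moved by over 1.5 times. For the members described sample by sample, the main values of this kind are given beside the difference.

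**Figure D1:**
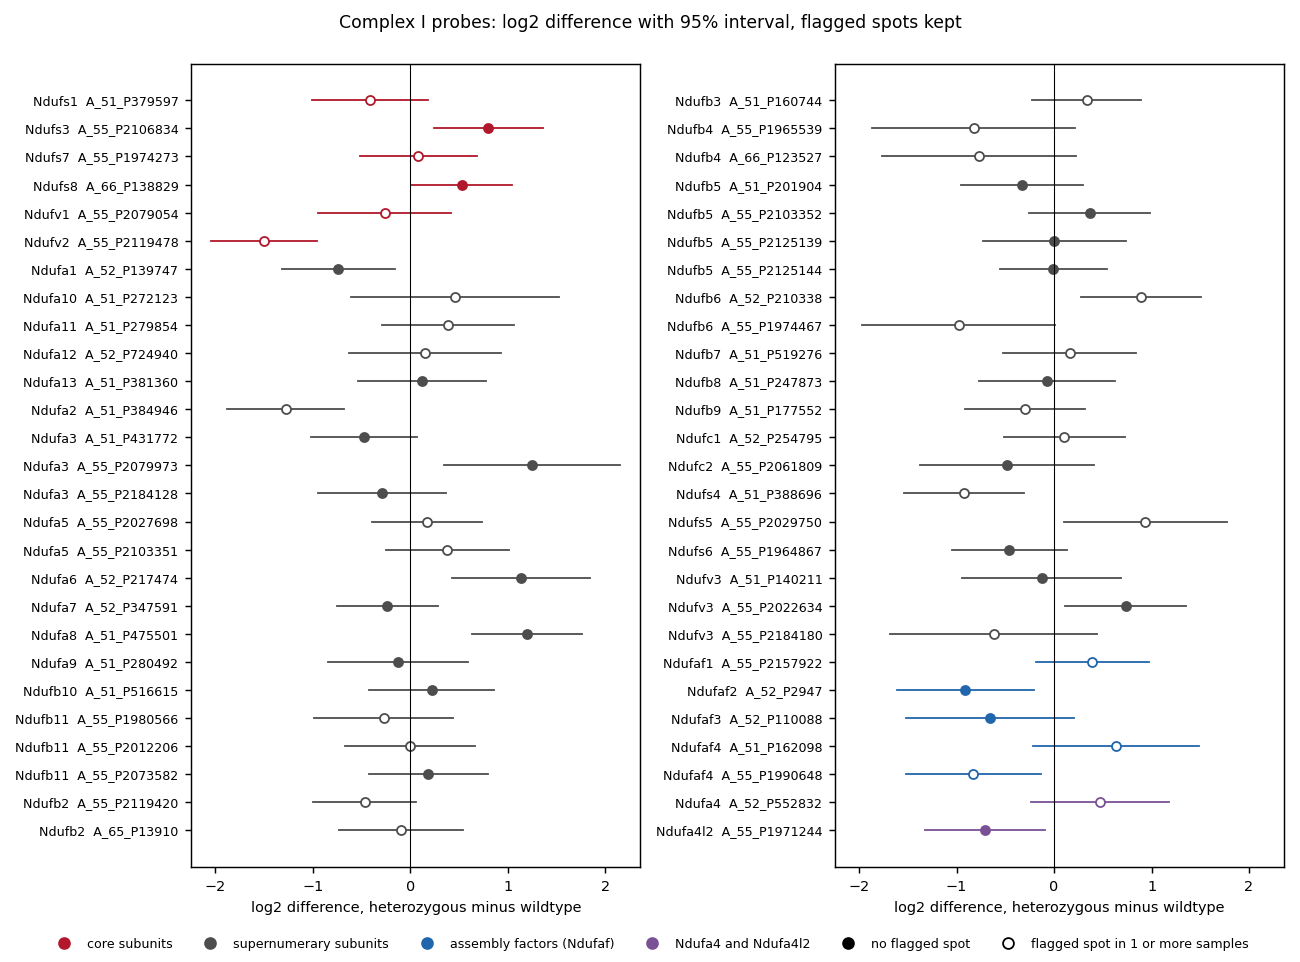
Log2 difference (samples labelled heterozygous minus wildtype, horizontal axis) of 54 complex I probes with its 95% interval from the fit with flagged spots kept; filled circles are the 25 probes with no flagged spot and open circles the 29 with one, and colours give the class. Ndufv2 stands lowest at -1.50 and the Ndufa3 probe A_55_P2079973 highest at 1.25, and the subunit probes plotted divide into 22 above and 25 below 0.

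The core subunits of the NADH module gave the largest difference among the members. Ndufv2 carries an iron-sulphur cluster beside the NADH-binding subunit Ndufv1. Its probe, which showed the largest difference of all members, begins with the following bases and lies at chr17:66428794-66428853 (mm9, minus strand).
Ndufv2 A_55_P2119478: gtgtgcaagcaggcctttaacttgtattca

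Ndufv2 had log2 levels of 12.52, 12.68, 12.67 and 12.86 in the samples labelled heterozygous, against 14.19, 14.15, 14.12 and 14.27 in wildtype. All 4 samples labelled heterozygous lay below all 4 wildtype samples, and both arrays of each genotype stood together. The difference was -1.50 (SE 0.24, 95% interval -2.04 to -0.96, adjusted p = 0.211, limma with flagged spots kept). The spot of heterozygous replicate 1 was flagged, and with that sample missing the difference was -1.48 (adjusted p = 0.324, limma). It ranged from -1.58 to -1.42 when a sample or an array was left out. The Ndufv2 value was -1.13 with the processed signals and -1.14 with the spatial trend removed.

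The other core subunits of the module showed smaller differences. Ndufv1, which binds NADH and the flavin that accepts its electrons, had 14.01, 13.85, 14.15 and 14.10 in the samples labelled heterozygous, against 13.97, 13.78, 14.71 and 14.69 in wildtype. Its difference of -0.26 (adjusted p = 0.897, limma with flagged spots kept) became -0.68 with heterozygous replicate 3 and wildtype replicates 1 and 2 missing for flagged spots, and 0.15 once the array that held wildtype replicates 3 and 4 was left out. The Ndufv1 value was -0.11 with the spatial trend removed. Ndufs1, the largest core subunit and a carrier of several iron-sulphur clusters, had 13.87, 13.72, 14.07 and 14.07 in the samples labelled heterozygous, against 14.40, 14.07, 14.53 and 14.39 in wildtype. The groups met at 14.07, and the difference was -0.41 (adjusted p = 0.732) with flagged spots kept and -0.28 with heterozygous replicates 1 and 2 missing for flagged spots. It was -0.07 with the processed signals and -0.10 with the spatial trend removed.

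In the quinone module, Ndufs3 and Ndufs8 read higher in the samples labelled heterozygous and Ndufs7 lay near 0. Ndufs7 lines part of the ubiquinone-binding site, Ndufs8 passes electrons through its iron-sulphur clusters, and Ndufs3 sits between the quinone and NADH modules. Ndufs3 had 14.17, 14.00, 14.31 and 14.24 in the samples labelled heterozygous, against 13.68, 13.49, 13.24 and 13.10 in wildtype (chr2:90734793-90734852, mm9, minus strand). The groups did not overlap, and the difference was 0.80 (SE 0.24, 95% interval 0.26 to 1.34, adjusted p = 0.483, limma), a ratio of 1.74. The Ndufs3 value was 0.48 with the processed signals and 0.51 with the spatial trend removed. Ndufs8 had 11.999, 12.01, 12.06 and 12.17 in the samples labelled heterozygous, against 11.64, 11.69, 11.38 and 11.42 in wildtype. Its groups did not overlap either, at a difference of 0.53 (SE 0.22, 95% interval 0.03 to 1.03, adjusted p = 0.607, limma), which fell to 0.05 with the processed signals. Ndufs7 had 13.76, 14.19, 14.12 and 14.48 in the samples labelled heterozygous, against 13.83, 13.99, 14.09 and 14.30 in wildtype, and its groups overlapped at a difference of 0.08 (95% interval -0.52 to 0.68), which turned to -0.06 with wildtype replicates 1 and 2 missing for flagged spots and to -0.37 with the processed signals.

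**Figure D2:**
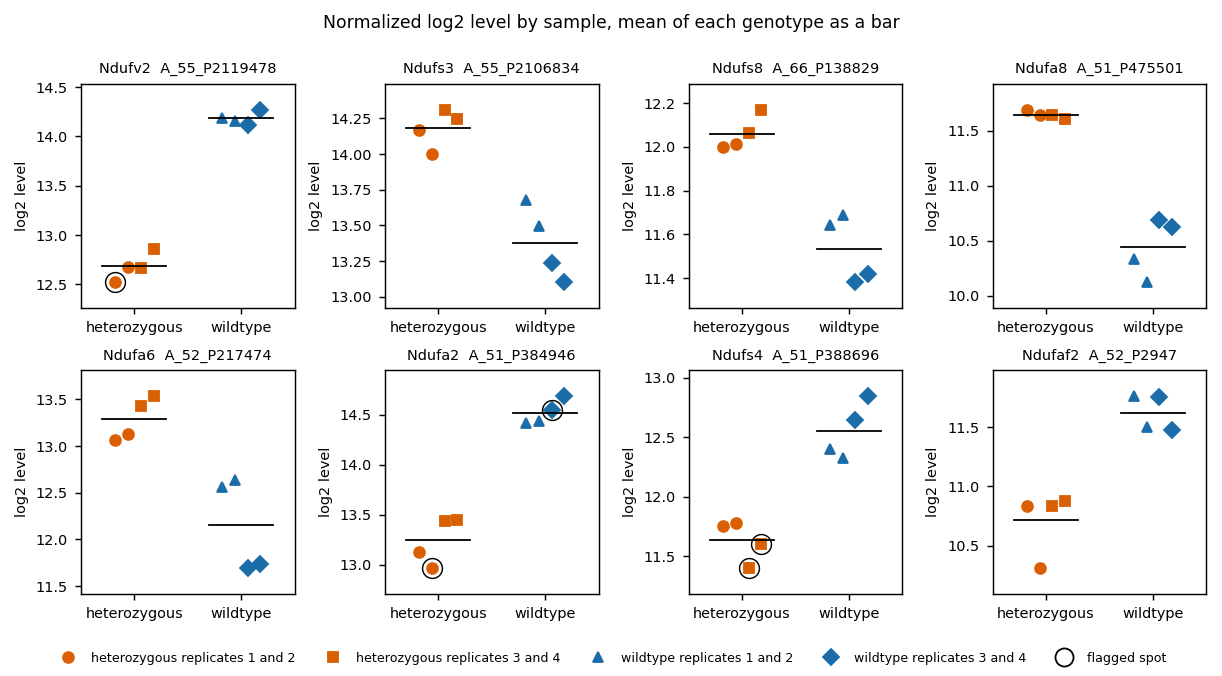
Normalised log2 level (vertical axis, its own range in each panel) in the 4 samples labelled heterozygous (left) and the 4 wildtype samples (right) for 8 complex I probes; symbols give the array, rings mark flagged spots and bars the mean of the 4 samples. The groups do not overlap in any panel: Ndufv2, Ndufa2, Ndufs4 and Ndufaf2 are lower and Ndufs3, Ndufs8, Ndufa8 and Ndufa6 higher in the samples labelled heterozygous.

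Among the supernumerary subunits with no flagged spot, Ndufa8, Ndufa6 and 1 of 3 Ndufa3 probes stood furthest above wildtype. Ndufa8 is a cysteine-rich subunit on the intermembrane-space side of the membrane arm. Its probe had the lowest p of the members without a flagged spot and lies at chr2:35891871-35891930 (mm9, minus strand).
Ndufa8 A_51_P475501: atcacagacattaacaaaaaagttaattta

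Ndufa8 had 11.69, 11.64, 11.64 and 11.60 in the samples labelled heterozygous, against 10.33, 10.12, 10.69 and 10.63 in wildtype. The samples labelled heterozygous lay within 0.1 of each other, and the wildtype arrays stood apart from each other but below them. The difference was 1.20 (SE 0.24, 95% interval 0.65 to 1.75, adjusted p = 0.437, limma), a ratio of 2.30. Leaving out a sample or an array gave 0.99 to 1.42.

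Ndufa6, a LYR-motif protein that anchors the mitochondrial acyl carrier protein to the matrix arm, had 13.07, 13.13, 13.43 and 13.53 in the samples labelled heterozygous, against 12.56, 12.63, 11.69 and 11.74 in wildtype. The groups did not overlap, at a difference of 1.14 (SE 0.31, adjusted p = 0.444, limma), but the wildtype arrays lay nearly 1 apart, and leaving out an array gave 0.69 (without wildtype replicates 3 and 4) to 1.58. The Ndufa6 value was 0.21 with the processed signals and 0.72 with the spatial trend removed. The acyl carrier protein itself, Ndufab1, is outside the naming rule and had a difference of -0.15 (adjusted p = 0.959, limma).

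Ndufa3, a small membrane subunit, was read by 3 probes on the plus strand of chromosome 7 that share no stretch of sequence. They lie at chr7:3571590-3571649, chr7:3571695-3571754 and chr7:3569447-3569506 (mm9), in the order shown, and only the first read higher.
Ndufa3 A_55_P2079973: ttctgttttgcagtgcctgtgagagatgac
Ndufa3 A_55_P2184128: atgcctctgctgatggaagaggccccttcc
Ndufa3 A_51_P431772: cagtttgactctgtaggcagaactcctcgg

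The first probe had 13.81, 13.51, 14.13 and 14.04 in the samples labelled heterozygous, against 11.99, 12.03, 13.23 and 13.25 in wildtype. Its groups did not overlap, at a difference of 1.25 (SE 0.40, adjusted p = 0.493, limma), while its wildtype arrays lay more than 1 apart and leaving out a sample or an array gave 0.64 (without wildtype replicates 1 and 2) to 1.86. The second had 15.02, 14.77, 14.79 and 14.61 in the samples labelled heterozygous, against 14.87, 14.88, 15.24 and 15.37 in wildtype, an overlapping difference of -0.29 (adjusted p = 0.896, limma) that was -0.44 with the processed signals and -0.07 without wildtype replicates 3 and 4. The third had 6.78, 6.82, 6.66 and 6.77 in the samples labelled heterozygous, against 7.24, 7.34, 7.02 and 7.32 in wildtype, a difference of -0.47 (adjusted p = 0.684, limma) with no overlap, and only 5 of the 8 samples read it well above background. That difference was -0.11 with the processed signals and -0.18 with the spatial trend removed. The 2 probes that lie closest together in the gene therefore had differences of opposite sign, though the 95% interval of the second, -0.93 to 0.35, included 0.

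Other supernumerary subunits of the Ndufa group read lower. Ndufa2, a thioredoxin-like subunit of the NADH module, had 13.13, 12.96, 13.44 and 13.45 in the samples labelled heterozygous, against 14.42, 14.44, 14.55 and 14.69 in wildtype. The groups lay about 1 apart, at a difference of -1.28 (SE 0.27, 95% interval -1.88 to -0.68, adjusted p = 0.283, limma with flagged spots kept). With heterozygous replicate 2 and wildtype replicate 3 missing for flagged spots it was -1.24 (adjusted p = 0.331, limma). Ndufa2 and Ndufv2, the lowest members, both belong to the NADH module, but other members of that module did not share their size or always their direction. Ndufv1 stood at -0.26, Ndufs1 at -0.41 and the 3 Ndufv3 probes at 0.73, -0.13 and -0.62. Ndufa1, an X-linked membrane subunit at the junction of the arms, had 14.46, 14.13, 14.06 and 13.81 in the samples labelled heterozygous, against 14.90, 14.47, 15.16 and 14.88 in wildtype. Its highest sample labelled heterozygous (14.46) lay just under its lowest wildtype sample (14.47), and the difference was -0.74 (SE 0.25, adjusted p = 0.509, limma), or -0.47 with the spatial trend removed. Ndufa7 had 14.73, 14.72, 14.87 and 14.68 in the samples labelled heterozygous, against 14.97, 14.88, 15.06 and 15.03 in wildtype, a difference of -0.23 (adjusted p = 0.891, limma) without overlap, or -0.08 with the processed signals and -0.12 with the spatial trend removed.

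The remaining Ndufa subunits had overlapping groups. Ndufa9, a subunit of the quinone module, had a difference of -0.12 and Ndufa13 one of 0.13, both without a flagged spot. With flagged spots kept, Ndufa10 stood at 0.46, Ndufa11 at 0.39, Ndufa12 at 0.15 and the 2 Ndufa5 probes at 0.17 and 0.38. Without the flagged samples Ndufa10 moved to 0.12 and Ndufa12 to -0.18.

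The supernumerary subunits named Ndufs and Ndufv went both ways. Ndufs4, which holds the NADH and quinone modules together and whose loss in the mouse gives a fatal encephalopathy, had 11.75, 11.78, 11.40 and 11.60 in the samples labelled heterozygous, against 12.40, 12.33, 12.64 and 12.84 in wildtype. Its groups did not overlap, at a difference of -0.92 (SE 0.27, adjusted p = 0.388, limma with flagged spots kept), and the difference was -0.79 with heterozygous replicates 3 and 4 missing for flagged spots. Ndufs6, a zinc-binding subunit of the same region, had 14.62, 14.51, 14.80 and 14.67 in the samples labelled heterozygous, against 14.93, 14.85, 15.27 and 15.37 in wildtype, a difference of -0.46 (adjusted p = 0.726, limma) without overlap. The Ndufs6 value shrank to -0.12 with the processed signals, -0.04 with the spatial trend removed and -0.25 without wildtype replicates 3 and 4. Ndufs4 and Ndufs6 both read lower in every sample labelled heterozygous than in every wildtype sample. Ndufs5, on the intermembrane-space side, had 14.92, 14.82, 13.72 and 13.70 in the samples labelled heterozygous, against 13.24, 13.10, 13.50 and 13.57 in wildtype. Its difference of 0.94 (adjusted p = 0.509, limma with flagged spots kept) came mostly from 1 array: without heterozygous replicates 1 and 2 it was 0.35.

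Ndufv3, an accessory subunit of the NADH module that mammals make as a short and a long splice form, was read by 3 probes that did not move together. A_55_P2022634 had 8.39, 8.57, 8.30 and 8.25 in the samples labelled heterozygous, against 7.33, 7.45, 7.78 and 8.01 in wildtype, a difference of 0.73 (SE 0.27, adjusted p = 0.546, limma) without overlap, or 0.37 with the processed signals, 0.31 with the spatial trend removed and 0.48 without wildtype replicates 1 and 2. A_51_P140211 overlapped at -0.13, and read 0.20 with the processed signals. A_55_P2184180 stood at -0.62 with flagged spots kept, with 13.20 and 12.88 in heterozygous replicates 1 and 2, 14.76 and 14.60 in heterozygous replicates 3 and 4, and 14.33 to 14.58 in wildtype. Its low value therefore lay in a single array.

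The Ndufb and Ndufc subunits belong to the membrane arm. Of the 18 Ndufb probes, 7 were higher and 11 lower with flagged spots kept. Ndufb6 was read by 2 probes on the minus strand of chromosome 4 with opposite readings. The first spans 4858 bases at chr4:40219858-40224715 and so crosses at least 1 intron, and the second lies at chr4:40217720-40217779 (mm9).
Ndufb6 A_52_P210338: gttcactattatgtcaaatatcatatggct
Ndufb6 A_55_P1974467: cagcacaagtatgttcctaaagtgctgtat

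The first Ndufb6 probe had 12.66, 12.44, 12.42 and 12.53 in the samples labelled heterozygous, against 11.71, 11.67, 11.47 and 11.65 in wildtype. The groups did not overlap, at a difference of 0.89 (SE 0.27, adjusted p = 0.402, limma with flagged spots kept), which turned to -0.12 with the processed signals and was 0.42 with the spatial trend removed. The second had 12.34, 11.86, 10.90 and 10.91 in the samples labelled heterozygous, against 12.83, 12.62, 12.20 and 12.27 in wildtype, an overlapping difference of -0.98 (SE 0.44, adjusted p = 0.575, limma with flagged spots kept). It was -0.38 without heterozygous replicates 3 and 4 and -1.58 without heterozygous replicates 1 and 2. Flagged spots touched 4 samples on the first probe and 2 on the second.

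Ndufb4 was read by 2 overlapping probes on the minus strand of chromosome 16, at chr16:37647711-37647770 and chr16:37647688-37647747 (mm9), which share 37 of their 60 bases. Bases 14 to 43 of the first and 1 to 30 of the second are shown, with the shared bases in capitals, because both probes returned the same pattern.
Ndufb4 A_55_P1965539: aacatctcctACTAAGTTCGGCAAGGATGA
Ndufb4 A_66_P123527: ACTAAGTTCGGCAAGGATGACTATTCTTGC

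On the first Ndufb4 probe the samples labelled heterozygous had 13.02, 12.68, 14.44 and 14.25, against 14.71, 14.41, 14.22 and 14.37 in wildtype. On the second they had 11.51, 11.61, 13.10 and 12.98, against 13.29, 13.08, 12.89 and 13.01 in wildtype. On both, heterozygous replicates 1 and 2 lay more than 1 below every other sample, and their spots were flagged. The differences of -0.83 and -0.77 with flagged spots kept became -0.0064 and -0.03 with the flagged samples missing. Leaving out the array of heterozygous replicates 1 and 2 gave -0.08 and -0.03. The Ndufb4 value thus rested on 1 array on both probes, and the flags and that array cannot be told apart.

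Ndufb5 had 4 probes without a flagged spot, with differences of -0.33, 0.36, 0.0036 and -0.01 and overlapping groups on each. The 3 Ndufb11 probes stood at -0.27 and -0.0049, for 2 probes that share 55 bases, and at 0.19. Only the groups of the first did not overlap, at 13.40 to 13.93 in the samples labelled heterozygous, against 13.94 to 13.97 in wildtype. Its spots were flagged in heterozygous replicates 3 and 4 and in wildtype replicates 1 and 2. Ndufb2 had -0.47 and -0.10 on 2 probes that share 30 bases, and the groups of the first did not overlap. Ndufb10 (0.22), Ndufb3 (0.34), Ndufb7 (0.16), Ndufb8 (-0.07) and Ndufb9 (-0.30), of which Ndufb9 is another LYR-motif protein, had overlapping groups. Ndufb10 turned to -0.23 with the processed signals. Of the Ndufc pair, Ndufc1 stood at 0.10 and Ndufc2 at -0.48 (adjusted p = 0.846, limma), with 13.38, 13.24, 14.31 and 14.13 in the samples labelled heterozygous, against 14.38, 13.82, 14.36 and 14.43 in wildtype. The Ndufc2 value was -0.03 without heterozygous replicates 1 and 2, -0.17 with the processed signals and -0.14 with the spatial trend removed.

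**Figure D3:**
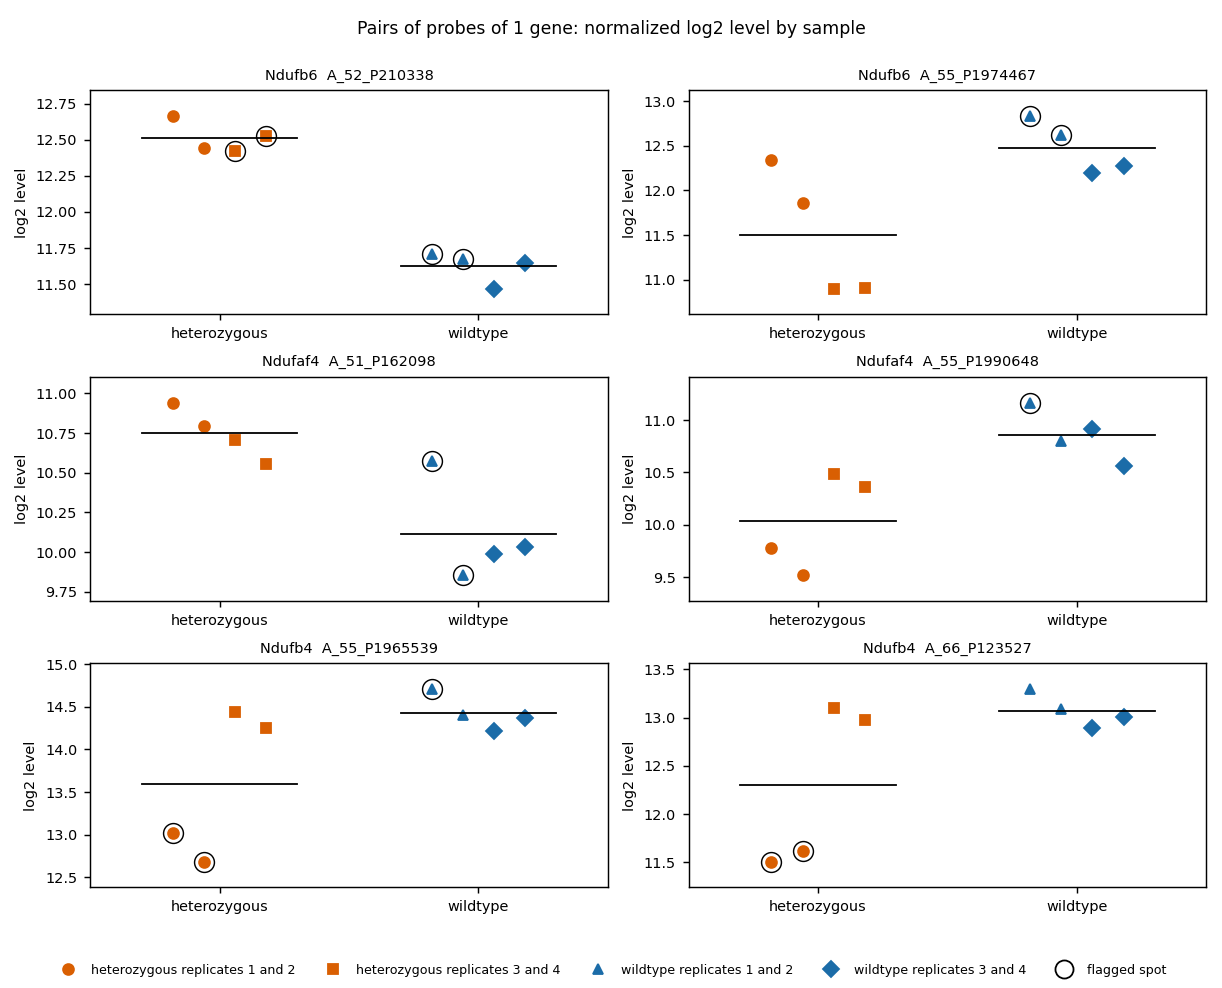
Normalised log2 level (vertical axis, its own range in each panel) by sample, samples labelled heterozygous left and wildtype right, for the 2 probes each of Ndufb6, Ndufaf4 and Ndufb4; symbols give the array, rings mark flagged spots and bars the mean of the 4 samples. The Ndufb6 and Ndufaf4 probes read in opposite directions, and both Ndufb4 probes are low only in heterozygous replicates 1 and 2, where the spots were flagged.

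The assembly factors read lower on the 2 probes without a flagged spot. Their median difference was -0.78, and 1 of the 2 had an unadjusted p under 0.05, against 8.05% of all probes. With flagged spots kept, 3 of 5 probes were lower and 2 higher, with a median of -0.66, and 2 had an unadjusted p under 0.05, against 8.83% of all probes. Ndufaf2, a paralogue of Ndufa12 that acts at a late step of assembly, had the lowest p of the class. Its probe lies at chr13:108843015-108843074 (mm9, minus strand).
Ndufaf2 A_52_P2947: cggtaaagaaaccagtgaagaactcttgcc

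Ndufaf2 had 10.84, 10.31, 10.84 and 10.88 in the samples labelled heterozygous, against 11.76, 11.50, 11.76 and 11.48 in wildtype. The groups did not overlap, at a difference of -0.91 (SE 0.30, 95% interval -1.59 to -0.23, adjusted p = 0.505, limma), a ratio of 0.53, and leaving out a sample or an array gave -1.05 to -0.77. The Ndufaf2 value was -0.66 with the processed signals and -0.63 with the spatial trend removed. Ndufaf3, which works with Ndufaf4 on the quinone module, had 11.12, 11.35, 10.32 and 10.27 in the samples labelled heterozygous, against 11.68, 11.92, 11.04 and 11.05 in wildtype. Its groups overlapped, at a difference of -0.66 (adjusted p = 0.743, limma). It was -0.19 without heterozygous replicates 3 and 4, -1.13 without heterozygous replicates 1 and 2, -0.38 with the processed signals and -0.37 with the spatial trend removed.

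The 2 Ndufaf4 probes, at chr4:24829194-24829253 and chr4:24830284-24830343 (mm9, plus strand), share no stretch of sequence and read in opposite directions.
Ndufaf4 A_51_P162098: atacaagttcctgtgagttgagggccataa
Ndufaf4 A_55_P1990648: catacttgcctcgagattccacgggaaaag

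The first Ndufaf4 probe had 10.94, 10.79, 10.71 and 10.55 in the samples labelled heterozygous, against 10.58, 9.86, 9.99 and 10.03 in wildtype, a difference of 0.64 (adjusted p = 0.708, limma with flagged spots kept) that turned to -0.06 with the processed signals and was 0.26 with the spatial trend removed. The second had 9.78, 9.52, 10.48 and 10.36 in the samples labelled heterozygous, against 11.17, 10.80, 10.91 and 10.56 in wildtype, a difference of -0.83 (adjusted p = 0.467, limma with flagged spots kept) without overlap, or -0.44 without heterozygous replicates 1 and 2. Ndufaf1, part of a membrane-arm assembly complex, had 9.82, 9.75, 10.32 and 10.32 in the samples labelled heterozygous, against 9.73, 9.62, 9.70 and 9.59 in wildtype, a difference of 0.39 (adjusted p = 0.742, limma with flagged spots kept). Its lowest sample labelled heterozygous (9.75) lay just above its highest wildtype sample (9.73), and the difference was 0.12 without heterozygous replicates 3 and 4.

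**Figure D4:**
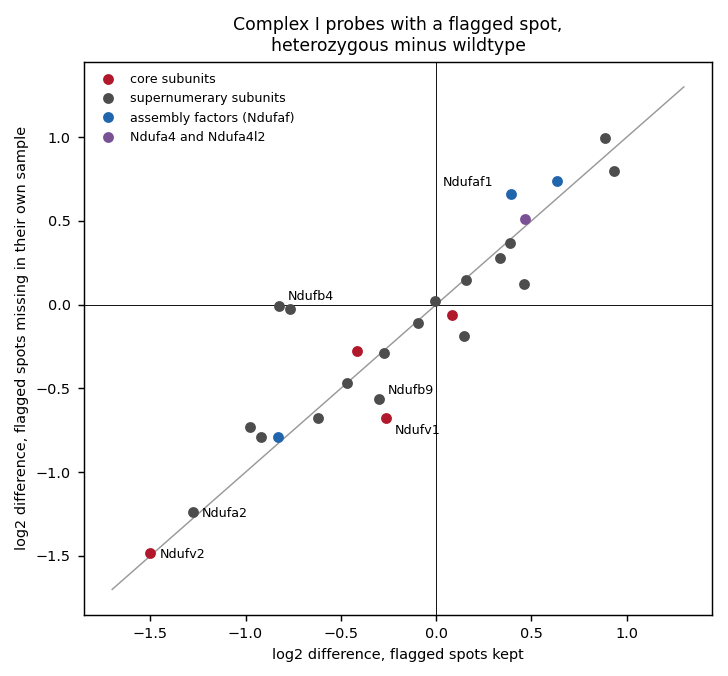
Log2 difference (samples labelled heterozygous minus wildtype) of 26 complex I probes with a flagged spot that could be fitted both ways, with flagged spots kept (horizontal axis) and with each flagged spot missing in its own sample (vertical axis); the grey line marks equal values. Of the 26, 7 moved by more than 0.25, among them both Ndufb4 probes, and Ndufv2 and Ndufa2 stayed at -1.48 and -1.24.

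Ndufa4 and Ndufa4l2 also went opposite ways. Ndufa4 had 14.12, 13.86, 14.13 and 13.85 in the samples labelled heterozygous, against 13.61, 13.29, 13.49 and 13.69 in wildtype, a difference of 0.47 (adjusted p = 0.752, limma with flagged spots kept) that turned to -0.10 with the processed signals and was 0.28 with the spatial trend removed. Ndufa4l2, a paralogue that hypoxia induces in several tissues, had 8.41, 8.40, 8.52 and 8.52 in the samples labelled heterozygous, against 8.78, 8.93, 9.46 and 9.50 in wildtype, a difference of -0.71 (SE 0.27, adjusted p = 0.552, limma) without overlap. It was -0.46 with the processed signals, -0.39 with the spatial trend removed and -0.39 without wildtype replicates 3 and 4.

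Genes of complex I outside the naming rule gave 2 higher and 3 lower among 5 probes tested, with 1 at an unadjusted p under 0.05 (20%), against 8.05% of all probes. In the fit with flagged spots kept, 3 of 8 were higher, and the share was 12.5%, against 8.83% of all probes. The genes named here were chosen for an unadjusted p under 0.05 or, for ND3, for the size of its difference. ND4, a proton-pumping subunit encoded in mitochondrial DNA, had 16.26, 16.35, 16.56 and 16.48 in the samples labelled heterozygous, against 15.79, 16.02, 14.96 and 15.22 in wildtype. Its groups did not overlap, at a difference of 0.91 (SE 0.32, adjusted p = 0.520, limma), but it was 0.02 with the processed signals and 0.51 without wildtype replicates 3 and 4. ND3, another mitochondrially encoded subunit, lay in the opposite direction at -1.03 (adjusted p = 0.633, limma with flagged spots kept), or -0.45 without heterozygous replicates 1 and 2. The ND3 spot was flagged in every sample labelled heterozygous, so no difference could be fitted without flagged values. The other mitochondrially encoded subunits stood at -0.01 (ND1), -0.13 (ND2), 0.26 (ND4L), 0.07 (ND5) and -0.03 (ND6), of which ND1 and ND5 are from the fit with flagged spots kept.

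Of 9 probes tested for assembly factors with other names, 6 were higher (66.7%, against 47.6% of all probes), and 2 had an unadjusted p under 0.05 (22.2%, against 8.05%). These were 8 and 3 of 12 probes with flagged spots kept (25%, against 8.83%). No overlap between the groups was seen for 4 of the 9 probes, 3 higher and 1 lower (44.4%, against 17% of all probes). The lower 1, named for that reason, was Nubpl A_51_P234627 at -0.53 (adjusted p = 0.689, limma). Nubpl stood at -0.03 on A_55_P2101387, with overlapping groups. Lyrm2 had 10.51, 10.78, 10.22 and 10.23 in the samples labelled heterozygous, against 8.58, 9.04, 8.99 and 9.05 in wildtype, a difference of 1.52 (SE 0.30, adjusted p = 0.437, limma). The Lyrm2 value was 1.06 with the processed signals and 1.12 with the spatial trend removed. Tmem186 stood at 0.82 (adjusted p = 0.552, limma), or 0.31 with the processed signals, 0.47 with the spatial trend removed and 0.35 without wildtype replicates 3 and 4. Foxred1 stood at 0.80 (adjusted p = 0.467, limma with flagged spots kept), or 0.26 with the processed signals and 0.51 with the spatial trend removed. The Foxred1 spots were flagged in wildtype replicates 1 and 2. Assembly factors renamed Nduf since the array was designed (Ndufaf5, Ndufaf6 and Ndufaf8) had -0.21, 0.80 and 0.20, with overlapping groups, and Ndufaf7 had 0.03 with flagged spots kept.

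Among regulators of respiratory genes, 6 of 10 probes were higher and 1 had an unadjusted p under 0.05 (10%), near the 8.05% of all probes. It was 2 of 13 with flagged spots kept (15.4%, against 8.83%). They were Tfam, a mitochondrial transcription factor, at 0.65 (adjusted p = 0.605, limma) on 1 probe and -0.13 and -0.07 on its other 2, and the nuclear receptor Esrra at 0.82 (adjusted p = 0.416, limma with flagged spots kept). With the spatial trend removed they were 0.31 and 0.40, and Esrra was 0.19 with the processed signals. The Esrra spots were flagged in heterozygous replicates 1 and 2 and in wildtype replicates 3 and 4. That left 1 array of each genotype without a flag.

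Marker probes of cell types were read beside these genes, and their part in the differences was not tested. No marker probe had an adjusted p under 0.05. All 5 probes tested for cortical excitatory neurons were lower, with a median of -1.03. Their summed log2 level was 35.9 to 42.4 in the samples labelled heterozygous. In wildtype it was 51.9 in replicate 1 and 38.8 to 39.8 in replicates 2 to 4. Of 15 probes tested for striatal projection neurons, 12 were higher, with a median of 0.31. Their summed log2 level was 174.4 to 180.5 in the samples labelled heterozygous. In wildtype it was 162.5 in replicate 4 and 171.5 to 174.8 in replicates 1 to 3. The summed levels overlapped for both lists, and neither held a probe with an unadjusted p under 0.05. Single probes without overlap between the groups were 5 of 15 for striatal projection neurons, all higher (33.3%). For cortical excitatory neurons it was 1 of 5, lower (20%), against 17% of all probes. All 5 ependyma probes were lower (median -0.40, summed level 41.1 to 41.9 in the samples labelled heterozygous, against 36.3 to 48.2 in wildtype), as were all 3 heart atrium probes (median -0.27, summed level 23.4 to 24.1 in the samples labelled heterozygous, against 24.4 and above in wildtype). Oligodendrocytes (5 of 7 higher), microglia (4 of 7 higher) and endothelium (1 of 5 higher) each had 1 probe with an unadjusted p under 0.05. Astrocytes (4 of 9 higher), choroid plexus (4 of 7 higher) and blood (1 of 4 higher) had none. In bulk tissue, fewer cells of a type and less RNA per cell cannot be told apart.

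The design limits what a test can reach: an exact permutation of the 4 arrays cannot give a two-sided p below 0.333. The labels number the samples as replicates, and each was read here as a separate mouse. Each p-value from limma weighs a difference against the spread between these samples. In the main fit, the same correlation within arrays (0.81) was used for all probes. With 4 arrays, the spread between arrays is poorly known for any given probe.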

How the data were processed

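RNA of each mouse was amplified and labelled with Cy3 or Cy5 per the labels' protocols, and 2-colour Agilent arrays were read with Agilent Feature Extraction 11.0.1.1, per the file headers. The deposited scanner files give the intensity of each spot, and the deposited value table holds a ratio, which was found to equal each spot's median signal minus median background over the column's median (equal within 1e-06 in 100% of values). Exon and UTR annotation of the files' build, mm9, was not used here.

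Mean signals were background-corrected with normexp (offset 50), normalised within arrays by loess and between arrays by Aquantile, and analysed as log2 values of the deposited intensity with limma 3.58.1 in R 4.3.3. Flagged background readings were replaced by the channel median. Control spots were left out and spots of 1 probe averaged. The dye was a covariate, the array a random block, and the Benjamini-Hochberg adjustment ran over all probes tested. The procedure was tested on simulated data. Of 39429 probes, 27324 were named through RefSeq (GRCm38.p6, names only). Printed sequences are those of the probes in the scanner files.

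The members, lists and alternatives were chosen with earlier results of these data known. Named members are the core subunits, the 10 supernumerary subunits and 4 assembly factors with the lowest p, members whose probes disagree in sign, and those with an unadjusted p under 0.05 or groups that do not overlap. Members left untested for a flagged spot are described from a fit with such spots kept. The values of 1 member are not reported here, though it stays in the counts and medians over members. The fit with flagged spots missing in their own sample, and the other alternatives repeated with flagged spots kept, were chosen after seeing the data.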

Additional observations from a re-analysis of the deposited data

Results flagged for a closer look

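In 108 groups of 4 values, 1 genotype of 1 probe each, the highest or lowest sample was compared with the other 3. For 4 independent values, chance alone marks about 1 in 20 such groups. Mice of the same array are not independent, so that rate need not hold here. Of the 108 groups, 3 were marked. Wildtype replicate 1 had a Ndufb3 level of 13.33, where the other wildtype samples had 13.12 to 13.16. Wildtype replicate 2 had a Ndufc2 level of 13.82, where the other wildtype samples had 14.36 to 14.43. Heterozygous replicate 2 had a Ndufaf2 level of 10.31, where the other samples labelled heterozygous had 10.84 to 10.88, and its value lay on the side away from wildtype.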

How the results depend on the processing

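No subunit or assembly factor probe passed the test under any alternative that treated the array as a block, including those with flagged spots kept, nor in the fits within 1 dye or of averaged arrays, which needed no block. Without the array block, which counts mice of the same array as independent, 539 of 18399 probes passed. Among them were 2 of 22 subunit probes (Ndufs3, adjusted p = 0.048, and Ndufa8, adjusted p = 0.022) and 1 of 2 assembly factor probes (Ndufaf2, adjusted p = 0.030, limma for all). With flagged spots kept and no block, 997 of 22288 probes passed, among them 7 of 49 subunit probes and 1 of 5 assembly factor probes. The deposited value table gave 1 probe past the test over the whole array, and leaving out a sample or an array gave 0 to 17, none of them a subunit or assembly factor; the 17 came with the array that held wildtype replicates 1 and 2 left out, and 14 with the other wildtype array left out. The subunit median ranged from -0.10 to 0.15 when a sample or an array was left out, with 0.15 without the array of heterozygous replicates 1 and 2. The assembly factor median was -0.52 with the scanner's processed signals and -0.50 with a spatial trend removed, and the cause was not tested. The processed signals lowered the median of all probes to -0.47, so that 0.558% of the probes with an unadjusted p under 0.05 were higher in the samples labelled heterozygous, against 47.5% in the main setting; member values under it are given relative to that median.

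Of the comparisons of a single reported probe with an alternative, 1580 kept direction and side of the threshold, 64 reversed and 9 passed the test only there, all 9 without the array block; the cause of the reversals was not tested. With the processed signals Ndufa13 (-0.20), Ndufb10 (-0.23), Ndufb5 A_55_P2125144 (0.043), Ndufb8 (0.059), Ndufv3 A_51_P140211 (0.20), Ndufs7 (-0.37), Ndufa5 A_55_P2103351 (-0.16), Ndufb6 A_52_P210338 (-0.12), Ndufb7 (-0.20), Ndufaf4 A_51_P162098 (-0.061) and Ndufa4 (-0.098) reversed. With the spatial trend removed Ndufb10 (-0.026), Ndufb5 A_55_P2125144 (0.011), Ndufb8 (0.14), Ndufv3 A_51_P140211 (0.098), Ndufs7 (-0.059), Ndufb11 A_55_P2012206 (0.078) and Ndufb7 (-0.026) did. The value table reversed Ndufb5 A_55_P2125144 (0.020) and Ndufs7 (-0.0051), the Cy5 samples Ndufa13 (-0.013), Ndufb5 A_55_P2125139 (-0.016) and A_55_P2125144 (0.081), the Cy3 samples Ndufb8 (0.0031), Ndufs7 (-0.022) and Ndufb11 A_55_P2012206 (0.12), and 75th percentile scaling Ndufb5 A_55_P2125139 (-0.0146). Flagged spots missing in their own sample reversed Ndufs7 (-0.059), Ndufa12 (-0.18) and Ndufb11 A_55_P2012206 (0.020). Leaving out a sample or an array gave ranges that crossed 0 for 16 probes: -0.25 to 1.18 for Ndufa10, -0.15 to 0.45 for Ndufa12, -0.58 to 0.33 for Ndufa9, -0.029 to 0.47 for Ndufb10, -0.21 to 0.20 for Ndufb11 A_55_P2012206, -0.091 to 0.46 for Ndufb11 A_55_P2073582, -0.42 to 0.23 for Ndufb2 A_65_P13910, -0.23 to 0.24 for Ndufb5 A_55_P2125139, -0.11 to 0.095 for Ndufb5 A_55_P2125144, -0.25 to 0.57 for Ndufb7, -0.18 to 0.032 for Ndufb8, -0.16 to 0.37 for Ndufc1, -0.079 to 0.25 for Ndufs7, -0.68 to 0.15 for Ndufv1, -0.69 to 0.44 for Ndufv3 A_51_P140211 and -1.44 to 0.20 for Ndufv3 A_55_P2184180. With the replicate number as a block, 0 probes passed and 2097 had an unadjusted p under 0.05. Samples of the same number correlated in their deviations at 0.040, 0.255, 0.164 and 0.125, and share a dye, so the numbers were not taken as pairs.

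With 2 arrays a genotype, the number of arrays and the spots flagged on them limit the precision of each value.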
